A study of Mus musculus with 6 samples.

Results

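The muscle stress, LIM and ankyrin-repeat genes are 10 genes chosen by symbol: Ankrd1, Ankrd2, Ankrd23, Csrp3, Fhl1, Fhl2, Fhl3, Pdlim3, Pdlim7 and Xirp1. Each of the 10 symbols was found in the table of 23367 gene entries, and all 10 were expressed strongly enough to be tested. Polyadenylated RNA of the gastrocnemius, the large calf muscle, was sequenced from wild type FVB mice in 6 libraries at 5 stages: E18.5, PN2, PN14, PN28 and adult (22 weeks). The labels name no treatment or transgene, and the groups differ in age, sex and pooling. The E18.5 library pooled several male and female fetuses and the PN2 library several male pups, while each of the other 4 libraries came from 1 male mouse. PN14 alone has replicates, from 2 mice.

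The proteins of these genes sit at the Z-disc, the I-band or the ends of the myofibril, where thin filaments, titin and the cell membrane are anchored. Many of them also enter the nucleus, and several are induced when muscle is stretched, injured or overloaded, so they are often read as markers of mechanical stress. Ankrd1, Ankrd2 and Ankrd23 encode the muscle ankyrin-repeat proteins (MARP), which bind titin in the I-band. Csrp3 (muscle LIM protein), the FHL proteins Fhl1, Fhl2 and Fhl3, and the PDZ-LIM proteins Pdlim3 (ALP) and Pdlim7 (Enigma) carry LIM domains, zinc-binding folds that dock other proteins. Xirp1 (Xin) carries actin-binding Xin repeats.

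Between E18.5 and the adult, Ankrd23 rose from a low level to 1001 FPKM, and Fhl3, Pdlim3 and Pdlim7 rose with it. Fhl2, Csrp3 and Ankrd1 fell over the same span. Ankrd2 and Xirp1 and the most abundant member at E18.5, Fhl1, had no called change from end to end with TMM scaling, whereas library size alone called Ankrd2 and Fhl1 lower.

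The promoters of the 3 MARP genes and of Fhl2 are shown first, because the MARP genes share a family and differ in profile, and because Fhl2 had the largest called fall among the members. Each line gives the 250 bases before a transcription start of the RefSeq table (GRCm38.p6), on the strand of the gene, and the positions are mm9 from an exact match of the sequence. Capitals mark a match to 1 of 4 motifs searched on both strands, none of which overlapped another here: the MCAT element CATTCC, bound by TEAD factors, the E-box CAGCTG, bound by myogenic factors, the CArG box of SRF and the MEF2 site. The start of the window is the leftmost base. The lines are Ankrd1 at chr19:36194335-36194584 (minus strand), Ankrd2 at chr19:42110267-42110516 (plus strand), Ankrd23 at chr1:36592585-36592834 (minus strand) and Fhl2 at chr1:43220807-43221056 (minus strand).
Ankrd1: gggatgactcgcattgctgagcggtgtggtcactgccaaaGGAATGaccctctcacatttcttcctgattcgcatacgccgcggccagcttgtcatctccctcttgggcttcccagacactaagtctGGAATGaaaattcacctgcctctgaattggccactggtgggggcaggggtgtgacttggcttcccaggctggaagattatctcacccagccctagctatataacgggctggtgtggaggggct
Ankrd2: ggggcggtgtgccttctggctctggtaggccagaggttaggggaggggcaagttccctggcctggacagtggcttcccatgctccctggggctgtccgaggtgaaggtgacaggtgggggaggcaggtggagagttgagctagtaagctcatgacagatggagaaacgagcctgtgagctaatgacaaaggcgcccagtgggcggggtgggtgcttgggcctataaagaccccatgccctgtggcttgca
Ankrd23: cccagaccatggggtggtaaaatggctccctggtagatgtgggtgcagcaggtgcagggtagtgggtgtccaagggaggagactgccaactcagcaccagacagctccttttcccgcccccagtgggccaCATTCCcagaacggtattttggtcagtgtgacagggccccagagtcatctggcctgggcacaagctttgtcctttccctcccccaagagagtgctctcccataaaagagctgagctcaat
Fhl2: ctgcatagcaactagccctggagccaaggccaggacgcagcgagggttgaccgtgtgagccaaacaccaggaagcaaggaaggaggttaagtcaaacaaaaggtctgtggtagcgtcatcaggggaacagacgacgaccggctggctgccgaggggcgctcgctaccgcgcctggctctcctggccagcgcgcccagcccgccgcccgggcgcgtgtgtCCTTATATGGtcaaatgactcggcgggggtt

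The Ankrd1 window held 2 MCAT matches on the reverse strand, at 210 to 205 and 123 to 118 bases before the start. The Ankrd23 window held 1, at 120 to 115 bases before the start, and the Ankrd2 window held none of the 4 motifs. In Fhl2 a CArG box lay 31 to 22 bases before the start shown, and a distal start of the same gene held another CArG box at 96 to 87 bases and a MEF2 site at 31 to 22 bases. Of the 13 windows of the 9 members in the table (Xirp1 has no entry), 3 held MCAT, 3 a CArG box, 1 a MEF2 site and 1 the E-box. Among 32851 windows of all genes the shares were 12.6%, 1.47%, 2.92% and 13%. Pdlim3 had the E-box and 2 MCAT matches, and Fhl1 the remaining CArG box at 102 to 93 bases before 1 of its starts. These matches describe letters in a window and do not show binding.

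The libraries held between 125402932 and 157868359 counts on genes, and the members together took 0.379% to 0.714% of them, with no member under 392 counts in any library, so counting error was small beside the difference between mice. The share of the 20 top genes was 16.0% at E18.5 and 36.9% in the adult, which lowers the share left to every other gene. FPKM (fragments scaled to transcript length and to the depth of the library, as deposited) is such a share, whereas the fold changes below use TMM scaling, which sets the bulk of genes equal. With library size alone the median gene differed by -1.08 on the log2 scale from E18.5 to adult, against -0.05 with TMM, so a level in FPKM can fall where the TMM fold change is near 0. The tissue label matched its markers: the summed FPKM of 12 myofibre markers was 41833 at E18.5, 47700 at PN2, 183444 and 148820 at PN14, 195052 at PN28 and 172870 in adult muscle. In FPKM, markers of other cells moved too. The sum of 8 fibroblast and tendon genes was 6236 at E18.5 and 535 in the adult, that of 6 satellite cell genes 243 and 52.5, and that of 8 slow fibre genes 3078 and 1471, with none of these genes at 0 in any library. After TMM scaling the median log2 fold change over this span was -2.15, -2.17 and 0.20 for these 3 lists. Of the slow fibre genes 1 rose and 1 fell, beside 21.4% and 23.6% of all genes. Their median became -0.83 when only library size was used, so the direction of the slow fibre list depends on the scaling. In bulk tissue fewer cells of a type and less RNA per cell cannot be told apart. The part of these shifts in the members' levels was not tested. Each library ran on its own sequencing lane, so lane and stage cannot be told apart.

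**Figure D1:**
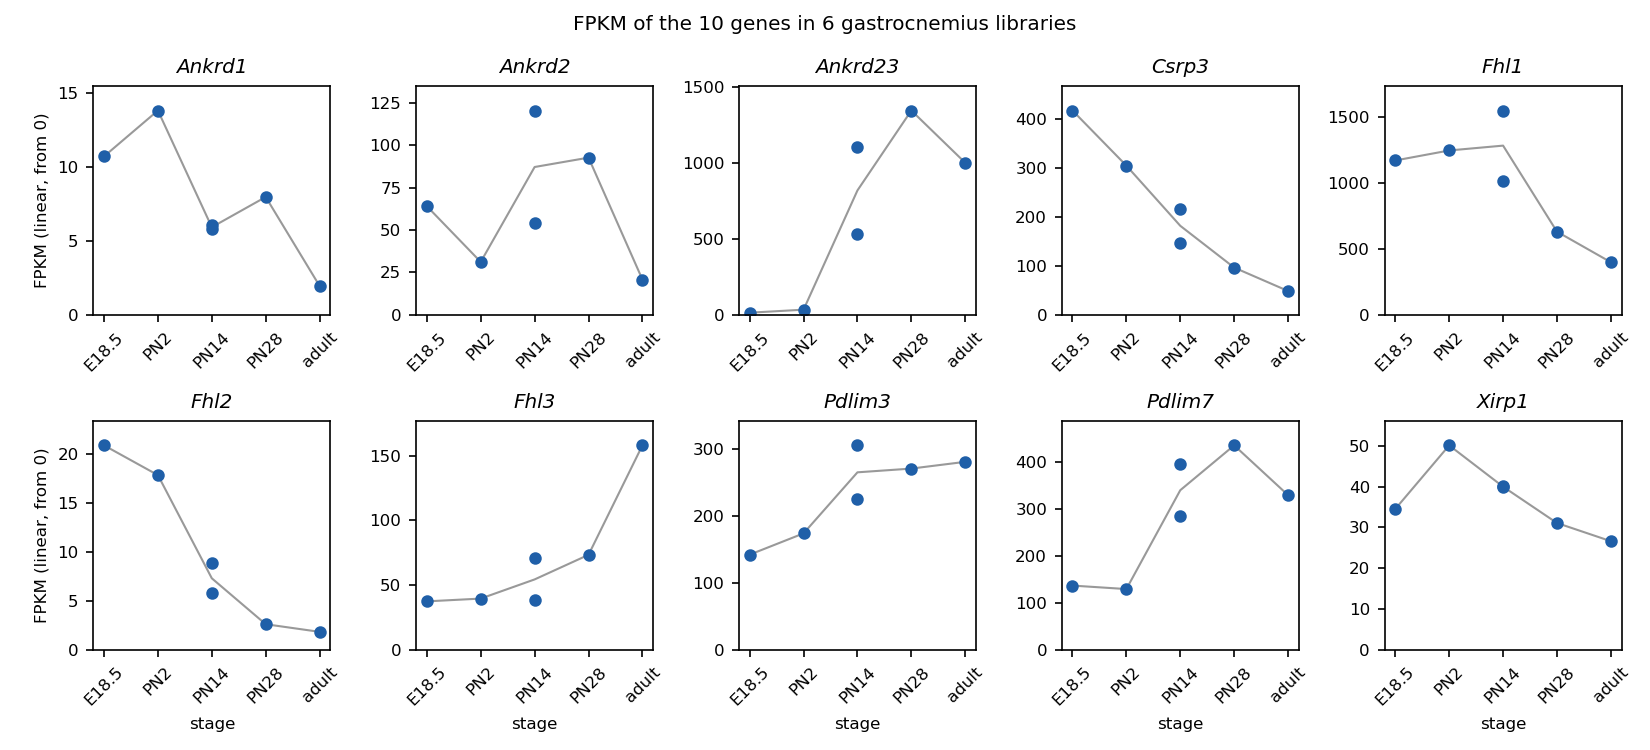
FPKM (linear axis from 0, scaled for each gene) of the 10 genes by stage; each point is 1 library and the line joins the values, through the mean of the 2 libraries at PN14. Ankrd23 goes from 14.1 at E18.5 to 1346 at PN28, while Csrp3 goes from 418 at E18.5 to 48.8 in the adult.

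Differences were tested with edgeR's quasi-likelihood test on all 16882 genes that passed its filter, with 1 residual degree of freedom that comes from the PN14 pair. A call needed a Benjamini-Hochberg adjusted p below 0.05 together with a 2-fold or larger difference. From PN2 to PN14, 3 members rose (11.8% of all tested genes rose) and 0 fell (11.2% of all). At an unadjusted p under 0.05 there were 6, of which Ankrd1 and Fhl2 were lower. No share of all genes at that unadjusted threshold is given, here or for the intervals below, so such counts have no background. The exact test of edgeR and the Wald test of DESeq2 each called 4 that rose and 0 that fell. These tests called 27.6% and 19.7% of all genes in either direction. Over the whole span, E18.5 to adult, 4 rose (21.4% of all) and 3 fell (23.6% of all). From PN2 to PN28 4 rose (14.3% of all) and 1 fell (12.7% of all). No member was called in the remaining intervals by edgeR's quasi-likelihood test. Between E18.5 and PN2 this stood against 0.0296% of all genes called, and 0 members had an unadjusted p under 0.05. The exact test and the Wald test called no member either, against 2.05% and 0.971% of all genes. Between PN14 and PN28 the quasi-likelihood test called no member, against 0.0178% of all genes, and 2 members had an unadjusted p under 0.05. The exact test and the Wald test each called 1, against 1.43% and 0.8% of all genes. Between PN28 and adult the quasi-likelihood test called no member, against 0.521% of all genes, and 2 members had an unadjusted p under 0.05. The exact test called 2, against 6.79% of all genes, and the Wald test 1, against 4.84%. Counted without a test, members at least 2-fold apart numbered 2 between E18.5 and PN2 (3.44% of all genes), 5 between PN2 and PN14 (27%), 2 between PN14 and PN28 (3.3%) and 3 between PN28 and adult (10.2%). The wider spans gave 7 between E18.5 and adult (49.6%) and 6 between PN2 and PN28 (33.9%). These comparisons share libraries and are given side by side.

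**Figure D2:**
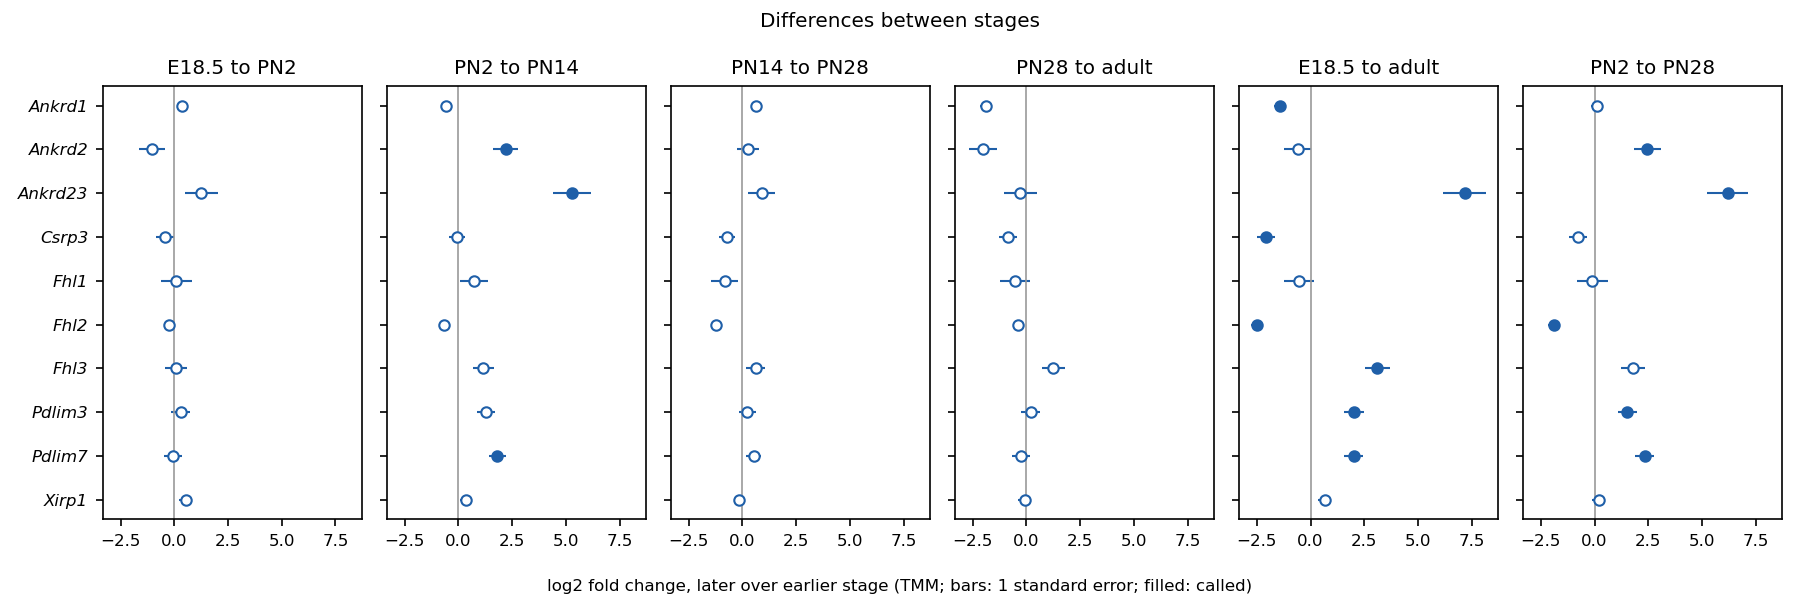
Log2 fold change (TMM) of the 10 genes in 6 comparisons, later over earlier stage; bars are 1 standard error and filled points passed edgeR's quasi-likelihood test at the 2-fold threshold. Filled points stand in 3 panels, with 3 genes from PN2 to PN14, 7 from E18.5 to adult and 5 from PN2 to PN28.

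Of the MARP genes, Ankrd23 (the diabetes-related ankyrin-repeat protein, on mm9 chr1:36587379-36592584) had 14.1 FPKM at E18.5, 33.9 at PN2, 1106 and 533 in replicates 1 and 2 at PN14, 1346 at PN28 and 1001 in adult muscle. The libraries from PN14 on stood far above the earlier ones, with no overlap. Ankrd23 rose 39.6-fold from PN2 to PN14 (log2 5.31, SE 0.883, adjusted p = 0.0112), and this gain ranked 158 by size among 16882 genes. The difference was 4.50 with replicate 2 alone and 5.81 with replicate 1 alone. Over the whole span it rose 145-fold (log2 7.18, SE 0.995, adjusted p = 0.00279). It lay higher at PN2 than at E18.5 by a log2 of 1.27, which missed the threshold (SE 0.772, adjusted p = 0.934). The steps from PN14 to PN28 (0.89, adjusted p = 0.717) and from PN28 to adult (-0.29, adjusted p = 0.878) were smaller than the log2 gap of 1.31 between the PN14 mice, although PN28 lay 1.69 above replicate 2 alone.

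Ankrd2, which is most abundant in slow fibres and responds to stretch (mm9 chr19:42110528-42119600), had 64.0 FPKM at E18.5, 31.2 at PN2, 120 and 53.8 at PN14, 92.6 at PN28 and 20.8 in adult muscle. The 2 mice at PN14 spanned the E18.5 and PN28 values. It rose 4.58-fold from PN2 to PN14 (log2 2.20, SE 0.593, adjusted p = 0.0386). This call rests on a gene with 1 of the widest gaps between the PN14 mice: the log2 difference from PN2 was 1.31 with replicate 2 alone and 2.73 with replicate 1 alone. Over the alternatives the adjusted p of that rise ranged from 0.000116 to 0.154, and the Wald test and a filter of 1 CPM did not call it. Ankrd2 also rose from PN2 to PN28 (log2 2.46, SE 0.645, adjusted p = 0.0345), a call that the Wald test did not make (adjusted p from 0.000209 to 0.159 over the alternatives). End to end it differed by -0.60 with TMM (SE 0.615, adjusted p = 0.443), and library size alone called it lower, at -1.62 (adjusted p from 6.9e-05 to 0.744). The adult lay lower than PN28 by a log2 of -2.02 (SE 0.636, adjusted p = 0.193), not called here, with adjusted p from 1.84e-06 to 0.565 over the alternatives.

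Ankrd1, the cardiac ankyrin-repeat protein and a YAP/TEAD target (mm9 chr19:36186455-36194334), was the lowest of the 3, with 10.7 FPKM at E18.5, 13.8 at PN2, 6.06 and 5.78 at PN14, 7.96 at PN28 and 1.95 in adult muscle. In FPKM the PN14 mice differed little, but with TMM their log2 gap was 0.32, against a median of 0.182 for all genes. The adult library stood below all others. Between E18.5 and adult it fell (log2 -1.43, SE 0.262, adjusted p = 0.00646), a level 2.69-fold lower. Its largest difference between successive stages lay between PN28 and adult, where the log2 value was -1.89 with an adjusted p of 0.0534 (SE 0.266), short of the threshold by edgeR's quasi-likelihood test. The Wald test, the exact test, library size alone and a fit with no filter called that step (adjusted p from 9.88e-06 to 0.0809 over all alternatives). Its difference from PN2 to PN28 changed sign with the scaling, at 0.09 with TMM and -0.79 with library size alone, neither called.

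The make-up of the family turned over. By summed FPKM, Ankrd2 made up 72.1% of the MARP message at E18.5 and Ankrd23 15.9%. At PN2 they were close, at 39.5% and 43.0%, and Ankrd1 had its highest share, 17.5%. In both PN14 mice Ankrd23 made up 89.7% and 89.9%, although its level differed between them, and in the adult it made up 97.8%. Such shares within a library do not depend on scaling between libraries.

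**Figure D3:**
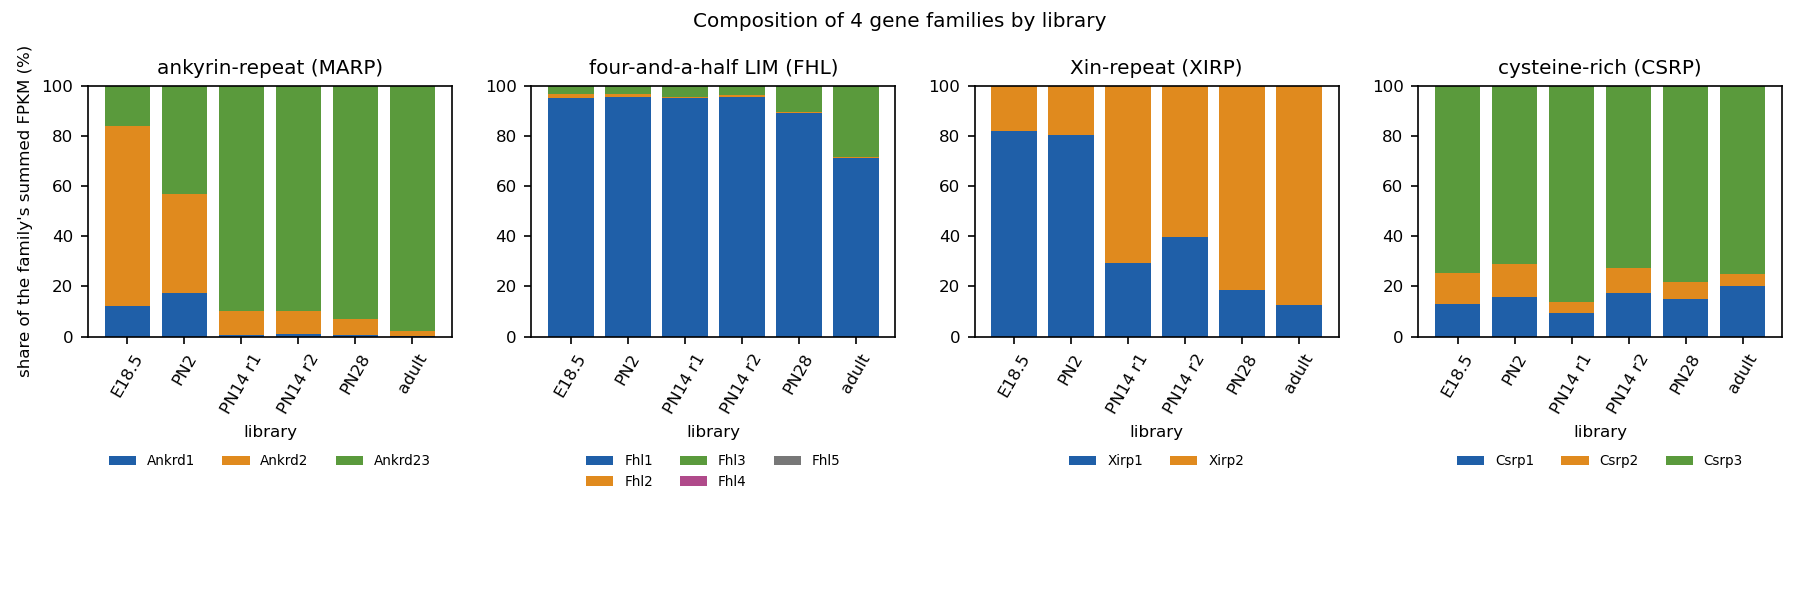
Share of a family's summed FPKM (percent, linear axis from 0) taken by each gene in each of the 6 libraries, for the MARP, FHL, Xin-repeat and cysteine-rich families. Ankrd23 goes from 15.9% to 97.8% of the MARP sum, and Xirp1 from 82.0% to 12.4% of the Xin-repeat sum.

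Among the LIM-only proteins, Fhl1, which scaffolds titin-linked signalling and is mutated in several human myopathies (mm9 chrX:53984964-54046523), had 1171 FPKM at E18.5, 1247 at PN2, 1550 and 1018 at PN14, 631 at PN28 and 399 in adult muscle. In FPKM E18.5 and PN2 lay between the PN14 mice, and PN28 and adult lay below both. In TMM-normalized CPM E18.5 and PN2, at 1838 and 1963, also lay below both PN14 mice, at 4202 and 2306. With TMM the end-to-end difference was -0.53 (SE 0.710, adjusted p = 0.553). With library size alone it was -1.56 with an adjusted p of 6.48e-05, so this call depends on the scaling.

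Fhl2, a co-regulator of transcription abundant in heart (mm9 chr1:43179919-43220806), had 20.9 FPKM at E18.5, 17.8 at PN2, 5.75 and 8.83 at PN14, 2.60 at PN28 and 1.82 in adult muscle. The stages followed each other downwards with no overlap. Fhl2 fell from E18.5 to adult to a level 5.64-fold lower (log2 -2.49, SE 0.279, adjusted p = 0.00183). It also fell from PN2 to PN28 (log2 -1.89, SE 0.272, adjusted p = 0.00918). No single interval was called by edgeR's quasi-likelihood test: the differences were -0.23, -0.65, -1.24 and -0.38 in order. For PN14 to PN28 the adjusted p was 0.360, and 0.0143 to 0.507 over the alternatives.

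Fhl3, which binds actin and MyoD (mm9 chr4:124377945-124385855), went the other way, with 37.4 FPKM at E18.5, 39.5 at PN2, 70.6 and 38.1 at PN14, 73.4 at PN28 and 158 in adult muscle. PN14 replicate 2 was no higher than PN2 in FPKM, and only the adult stood clear of every other library. Fhl3 rose 8.61-fold from E18.5 to adult (log2 3.11, SE 0.571, adjusted p = 0.00651). The step from PN28 to adult was 1.24 (SE 0.535, adjusted p = 0.296), called with library size alone (0.0464 to 0.314 over the alternatives). That from PN2 to PN14 was 1.16 (SE 0.482, adjusted p = 0.115), called by the Wald test (0.0181 to 0.238). From PN2 to PN28 the difference was 1.78 (SE 0.543, adjusted p = 0.0518). The Wald test, the exact test and the fit with no filter called it (0.000899 to 0.0672 over the alternatives). Within the FHL family Fhl1 held between 95.2% and 95.5% of the summed FPKM up to PN14, 89.1% at PN28 and 71.2% in the adult. Fhl3 took 3.04% at E18.5 and 28.2% in the adult, while Fhl4 and Fhl5 never passed 1 FPKM.

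Csrp3, a Z-disc protein held to sense stretch in heart (mm9 chr7:56085768-56103400), had 418 FPKM at E18.5, 305 at PN2, 217 and 147 at PN14, 96.7 at PN28 and 48.8 in adult muscle. In FPKM every later stage lay below the one before it, without overlap. In TMM-normalized CPM PN14 replicate 1, at 218, lay above PN2, at 177, and replicate 2, at 124, below it. It fell to a level 4.21-fold lower from E18.5 to adult (log2 -2.07, SE 0.436, adjusted p = 0.0102). With TMM the 4 intervals gave -0.45, -0.06, -0.72 and -0.85, none called. Csrp3 kept 71.0% to 86.3% of its family's summed FPKM, since Csrp1, expressed in many tissues, and Csrp2, the smooth muscle member, were also lower later. Csrp1 went from 72.8 FPKM at E18.5 to 13.0 in the adult and Csrp2 from 70.4 to 3.06.

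Both PDZ-LIM members rose. Pdlim7, which ties kinases to actin (mm9 chr13:55597156-55615037), had 136 FPKM at E18.5, 129 at PN2, 395 and 284 at PN14, 435 at PN28 and 329 in adult muscle. Both early libraries lay below every later one. It rose 3.48-fold from PN2 to PN14 (log2 1.80, SE 0.397, adjusted p = 0.0226), with differences of 1.41 and 2.11 from either PN14 mouse alone. It also rose over the whole span, to 4 times its E18.5 level in the adult (log2 2.00, SE 0.434, adjusted p = 0.0114). Library size alone put this rise at 0.97, under the fold threshold. The FPKM values (136 and 329), which are also divided by transcript length, lay more than 2-fold apart.

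Pdlim3, which binds alpha-actinin at the Z-disc (mm9 chr8:46970839-47004900), had 142 FPKM at E18.5, 174 at PN2, 305 and 225 at PN14, 271 at PN28 and 281 in adult muscle. In FPKM PN28 and adult lay between the PN14 mice. In TMM-normalized CPM the adult, at 600, lay above both PN14 mice, at 554 and 341. Between E18.5 and adult Pdlim3 rose 4.03-fold (log2 2.01, SE 0.459, adjusted p = 0.0135), which library size alone put at 0.98, under the fold threshold. The difference from PN2 to PN14 was 1.29 (SE 0.407, adjusted p = 0.0581), which the Wald test, the exact test and the fit with no filter called (0.000876 to 0.117 over the alternatives). From PN2 to PN28 it rose (log2 1.53, SE 0.452, adjusted p = 0.0477), a call lost with library size alone, with DESeq2's size factors and with a filter of 1 CPM (0.000565 to 0.139). Ldb3 (Cypher), the Z-disc relative of the same family, held 44.5% to 51.8% of the summed PDZ-LIM FPKM throughout, against 12% to 17.3% for Pdlim3 and 10.5% to 20.3% for Pdlim7. Not all of the family rose: Pdlim4 fell from E18.5 to adult, with 37.2 and 3.59 FPKM (log2 -2.35, SE 0.245, adjusted p = 0.00158), while Pdlim1 had 67.0 and 22.3 FPKM and Pdlim2 5.28 and 2.01, neither called.

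Xirp1 (mm9 chr9:119922873-119932716), known from regenerating fibres and myotendinous junctions, varied least in FPKM, 1.88-fold from its lowest to its highest stage, with 34.5 FPKM at E18.5, 50.1 at PN2, 40.1 and 39.8 at PN14, 31.1 at PN28 and 26.6 in adult muscle. No comparison called it, and its sign depended on the scaling. End to end it was 0.65 with TMM (SE 0.299, adjusted p = 0.113) and -0.38 with library size alone. From PN2 to PN14 it was 0.34 and -0.33. Its relative Xirp2, also an actin-binding Xin-repeat gene, had 7.55 FPKM at E18.5, 12.03 at PN2, 96.5 and 60.7 at PN14, 137 at PN28 and 187 in adult muscle. Xirp2 rose from PN2 to PN14 (log2 3.40, SE 0.652, adjusted p = 0.0157). The share of Xirp1 in the pair thus went from 82.0% at E18.5 to 29.4% and 39.6% at PN14 and 12.4% in the adult.

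**Figure D4:**
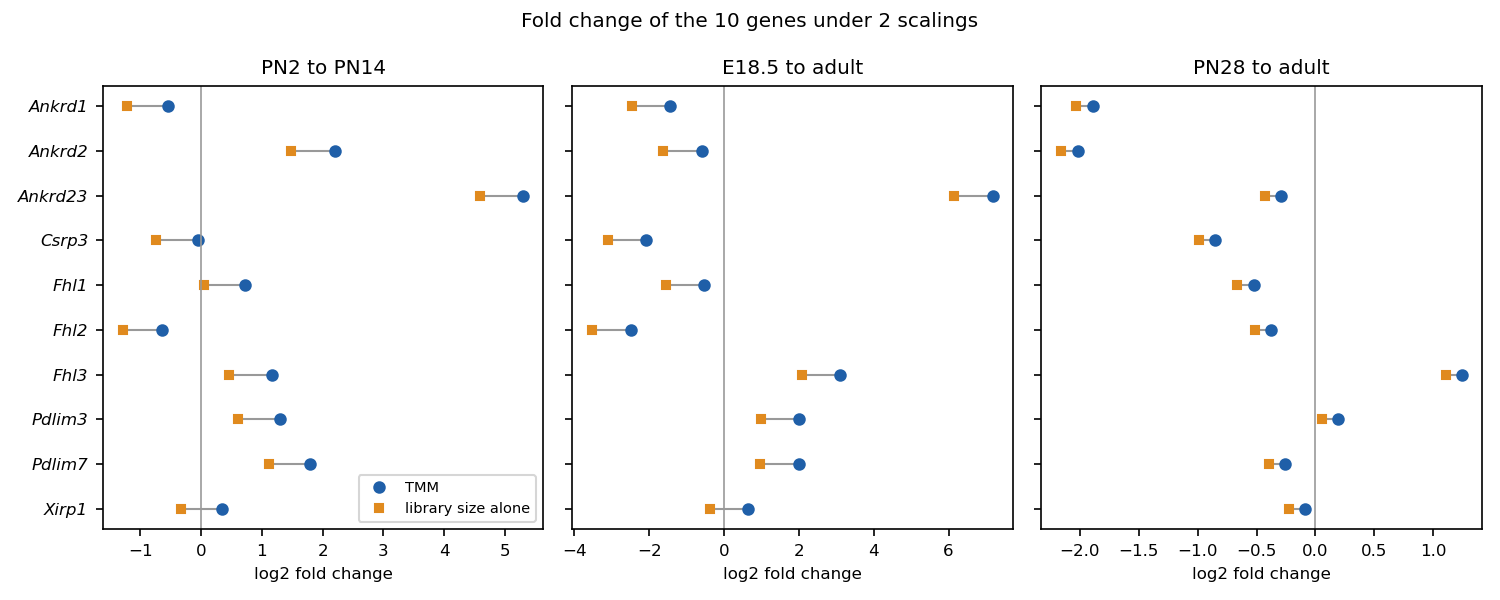
Log2 fold change of the 10 genes in 3 comparisons with TMM (circles) and with library size alone (squares); the grey line joins the 2 values of a gene. From E18.5 to adult each square lies to the left of its circle, and Xirp1 goes from 0.65 to -0.38.

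The 2 mice at PN14 differed more in these genes than in most. The log2 gap between them was 1.42 for Ankrd2, 1.31 for Ankrd23, 1.15 for Fhl3, 0.87 for Fhl1, 0.82 for Csrp3, and 0.70 for both Pdlim3 and Pdlim7. All 7 of these were higher in replicate 1 and above the 90th percentile of 12770 genes (0.577), where the median gap was 0.182. Ankrd1 (0.32) and Xirp1 (0.27) were also higher in replicate 1, and Fhl2 (-0.36) was lower. Among all genes 50.4% were higher in replicate 1. The summed FPKM of myofibre markers was 183444 in replicate 1 and 148820 in replicate 2, that of slow fibre markers 4535 and 3639, that of fibroblast and tendon genes 1783 and 2104, and that of immediate early genes 149 and 96.2. Erythroid genes summed to 2092 and 1153, satellite cell genes to 109 and 165, and endothelial genes to 175 and 261. The part of these markers in the gap was not tested. Every comparison with PN14 rests on this pair, and with replicate 2 alone 3 members were at least 2-fold above PN2, against 6 with replicate 1 alone. With both replicates 5 members and 14.5% of all genes were. The share of all genes was not counted with 1 replicate alone, so whether the swing is particular to the members was not tested. From PN14 to PN28, Ankrd2 differed by 1.14 with replicate 2 alone and by -0.28 with replicate 1 alone, and Csrp3 from PN2 to PN14 by -0.52 and 0.30.

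For Pdlim7 the deposited columns also carried a signal on transcript length. Dividing a gene's share of the counts by its FPKM gives the length, in bases, that RSEM assigned to the gene, which averages over its transcripts by their estimated abundance. This ratio was looked at after the values were seen. For Pdlim7 it was 1089 at E18.5 and 1093 at PN2, then 892 and 914 at PN14, 881 at PN28 and 888 in adult muscle. The log2 range over the libraries, 0.31, ranked 16 among 3383 genes with at least 10 FPKM and 500 counts in every library, where the median range was 0.0019 and 0.769% of genes reached 0.2. In the 7 other members of that set it was at most 0.0048. Ldb3 moved the same way, from 2802 at E18.5 to 2028 in the adult. The mm9 annotation of GENCODE M1 lists 7 coding Pdlim7 transcripts, among them long ones of 1697 and 1706 bases over 13 and 14 exons and short ones of 1006 and 899 bases over 8 exons. The table gives no transcript-level values, and which transcripts changed was not tested. The fold changes given here use counts, which unlike FPKM are not divided by this length, so a change in length can shift them.

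**Figure D5:**
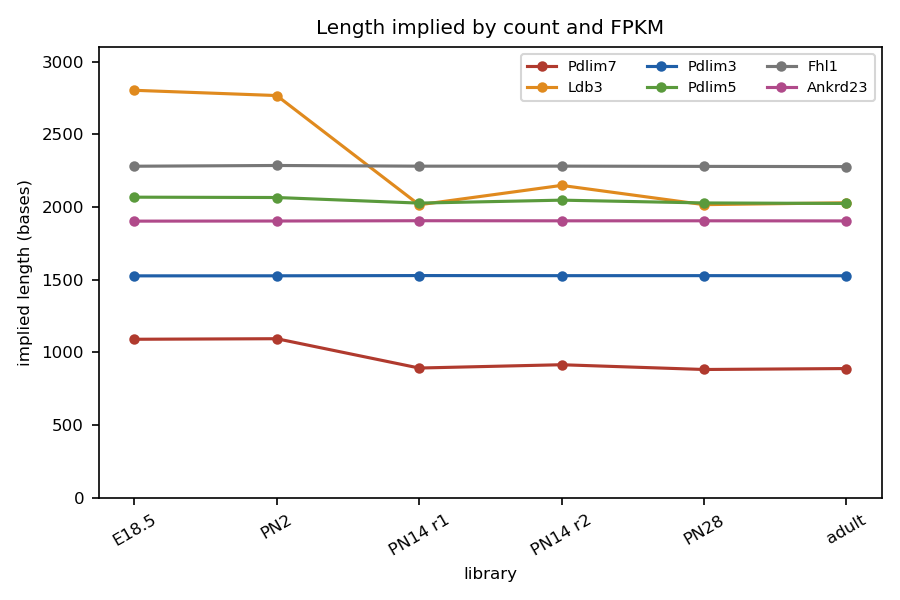
Length in bases (linear axis from 0) implied by the count and the FPKM of 6 genes in each library. Pdlim7 lies at 1089 and 1093 in the first 2 libraries and between 881 and 914 in the later 4, while Ankrd23, Fhl1 and Pdlim3 stay level.

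A further 4 gene lists were followed beside the members. Of 11 sarcomeric binding partners, 3 rose and 0 fell from PN2 to PN14 by edgeR's quasi-likelihood test: Actn3, the fast-fibre alpha-actinin (log2 4.0, SE 0.948), Myot, which cross-links actin (1.68, SE 0.439), and Capn3, a titin-bound protease (1.10, SE 0.295). The list's median was 1.26, against -0.01 for all genes, of which 11.8% rose and 11.2% fell. Over the whole span 7 of the 11 rose and 0 fell, with a median of 2.40 against -0.05, beside 21.4% of all genes rising and 23.6% falling. Tcap, which caps titin at the Z-disc, had 1259 and 452 FPKM in the PN14 mice, a gap of the same direction as in most members.

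Of 10 family relatives, Xirp2 rose and Csrp2 fell (log2 -1.29, SE 0.271, adjusted p = 0.0201) from PN2 to PN14, with a list median of 0.29. Between E18.5 and adult 2 of the relatives rose and 3 fell, with a median of -0.45. Of all genes 11.8% rose and 11.2% fell from PN2 to PN14, and 21.4% and 23.6% between E18.5 and adult. Of 18 other LIM adaptors, Lims2, the PINCH2 partner of integrin-linked kinase, rose from PN2 to PN14 (log2 2.72, SE 0.192) and Lima1, an actin cross-linker, fell (-1.08, SE 0.185), with a median of -0.28. Between E18.5 and adult 1 of the 18 rose and 10 fell, with a median of -1.32. Of 12 YAP/TEAD and SRF targets, which include Ankrd1, 0 passed from PN2 to PN14 and the median was -0.05. From PN28 to adult only Actc1, the cardiac actin of fetal muscle, fell (log2 -7.87, SE 0.990, adjusted p = 0.0499). Over the whole span 1 of the 12 rose and 6 fell, Ankrd1 among them, with a median of -0.87. No gene of the other 3 lists was called from PN28 to adult. With library size alone the list medians lay lower, and that of the family relatives from PN2 to PN14 changed sign to -0.35. The counts moved as well: from PN2 to PN14 4 of the 12 YAP/TEAD and SRF targets, 8 of the 18 LIM adaptors and 4 of the 10 relatives then fell, and 5 of the 11 binding partners rose, beside 5.06% of all genes rising and 29.4% falling.

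The genes with the most similar profile, by the root mean square difference of centred log2 values over the 6 libraries, differed from member to member. For Ankrd23 the closest was Mb, the oxygen store myoglobin (0.30). For Fhl1 they were Tnnt1, the slow troponin T (0.15), and Lmcd1, another LIM gene (0.15). Ankrd1 lay nearest Adamts2, a procollagen protease (0.20), and Kera, a matrix proteoglycan (0.22), and Ankrd2 nearest Mgp (0.38) and Btg2 (0.43). Pdlim7 lay nearest Kcnc1 (0.071) and Nipal3 (0.12), Pdlim3 nearest Bckdk (0.089) and AI314180 (0.10), and Xirp1 nearest Sfxn3 (0.066) and Dgkz (0.082). Csrp3 lay nearest Spry4 (0.23) and Cercam (0.25), Fhl2 nearest Wsb1 (0.16) and Nt5c2 (0.19), and Fhl3 nearest Diap1 (0.15) and Dym (0.17). Within the 10 genes the closest pair was Pdlim3 and Pdlim7 (0.24), followed by Fhl1 and Xirp1 (0.45) and by Csrp3 and Fhl2 (0.48). The nearest member was Pdlim3 for Fhl3 (0.53), Csrp3 for Ankrd1 (0.55) and Fhl1 for Ankrd2 (0.76). Ankrd23 stood farthest from its nearest fellow, Pdlim7, at 2.08. These values describe 6 libraries and 8830 genes of at least 10 CPM on average and carry no test.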

How the data were processed

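The deposited table holds expected counts and FPKM for 23367 gene entries in 6 libraries, and 0 columns belonged to other samples. The authors aligned paired reads to mm9 with TopHat2 2.0.5 and estimated counts per gene with RSEM (version not given in the sources used here). The expected counts were deposited without normalization and are whole numbers. The FPKM values were made by the authors from the same counts, scaled to transcript length and to library depth.

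Rounded counts went into edgeR 4.0.16 under R 4.3.3 (TMM, filterByExpr by stage, quasi-likelihood test, all 6 libraries with 5 stages as groups, Benjamini-Hochberg over 16882 genes). The common biological coefficient of variation was 0.188, with a prior of 4.86 degrees of freedom, so every stage is assumed to vary as PN14 does. Standard errors (SE) were computed as the size of the log2 fold change over the square root of F. The count of 2-fold differences used log2(TMM CPM + 0.1) among genes of at least 1 CPM. A count of 3 equals 0.019 to 0.0239 CPM. Alternatives were library size alone, DESeq2 size factors, DESeq2 1.42.0 (Wald test), edgeR's exact test, other filters, a pseudocount of 1 CPM, FPKM, and leaving out either PN14 library. The fit was also run on simulated counts with the same dispersion for every gene. That run checked the code and does not bear on the calls given here. Positions and exons came from GENCODE M1, and promoters from the RefSeq table, searched with Python 3.11.15; figures used matplotlib 3.10.9.

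All 10 members are named, with the 2 genes and the member nearest to each, except 1 gene that is not reported here. From the neighbouring lists, genes passing from PN2 to PN14 or from PN28 to adult are named, up to 3 in each direction. Tcap, Csrp1, Ldb3, Fhl4, Fhl5, Myl4, Myh6, Tnni3, Myl7, Nppa and Nppb were added after their values were seen. Pdlim1, Pdlim2, Pdlim4 and Des are also named outside that rule. The members and lists were chosen with earlier results of these data known. Replicates are separate mice at PN14 alone.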

Additional observations from a re-analysis of the deposited data

How the results depend on the processing

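Of 360 member differences re-computed with a test, 325 kept their direction and side of the threshold, 23 became called, 8 lost the call and 4 reversed. Those 4 reversals came with library size alone: Xirp1 at -0.33 from PN2 to PN14, -0.38 from E18.5 to adult and -0.69 from PN2 to PN28, and Ankrd1 at -0.79 from PN2 to PN28. That scaling moves the median of all genes by construction, to -0.66, -1.08 and -0.92 in these comparisons. With it the members called numbered 1 between E18.5 and PN2, 5 between PN2 and PN14, 1 between PN14 and PN28 and 3 between PN28 and adult, against 1.43%, 34.5%, 1.55% and 5.14% of all genes. The 7 from E18.5 to adult split into 2 up (7.98% of all genes) and 5 down (45.6%) in place of 4 and 3. The Wald test called 1 between PN14 and PN28 and 1 between PN28 and adult, and the exact test 1 and 2. The fit without a filter called 1 from PN28 to adult, where 184 of all 19590 genes in that fit rose and 651 fell. The cause of these differences between tests was not tested. Members 2-fold apart from PN14 to PN28 numbered 1 with library size alone and 1 with FPKM, against 2. The share of all genes was not counted in these settings. Leaving out 1 PN14 library gave 3 to 6 such members from PN2 to PN14 and 3 to 4 from PN14 to PN28, where 3 rose and 1 fell without replicate 1, and 0 rose and 3 fell without replicate 2. The share of all genes was not counted with a library left out. Of the 40 member values with a library left out, which have no test since no residual degree of freedom is left, 4 turned sign, none of a called difference: without replicate 2, Csrp3 from PN2 to PN14 (0.30), Ankrd2 (-0.28) and Pdlim3 (-0.07) from PN14 to PN28, and without replicate 1, Xirp1 there (0.00057). No paired analysis was possible because only PN14 has 2 libraries. Depth limits no member (392 counts or more in each library), but 1 residual degree of freedom limits every p.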

Other observations

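Genes of other cell types and states gave a setting for the members. Of the 6 cardiac markers, Myl4, the atrial light chain that fetal skeletal muscle also makes, had 814 FPKM at E18.5, 534 at PN2, 8.79 and 17.2 at PN14, 5.65 at PN28 and 4.20 in adult muscle. Nppa and Nppb, the natriuretic peptides of the heart, never passed 0.12 FPKM. Myh6 rose from PN2 to PN14 (log2 1.45, SE 0.293, adjusted p = 0.018), while Tnni3 (1.35) and Myl7 (-2.95) were not called. Of the 5 cardiac markers tested, 1 rose and 1, Myl4, fell in that interval, with a median of 0.74. Of all genes 11.8% rose and 11.2% fell there. Actc1 had 5472 FPKM at E18.5, 2201 at PN2, 2166 and 3465 at PN14, 2864 at PN28 and 11.1 in adult muscle, so it was lower at PN2 than at E18.5 (log2 -1.31, not called by edgeR's quasi-likelihood test) and fell between PN28 and adult. That comparison rests on 1 mouse at either stage.

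The 10 immediate early genes summed to 109 FPKM at E18.5, then to 137 at PN2, 149 and 96.2 at PN14, 71.4 at PN28 and 69.2 in adult muscle. Between E18.5 and adult 0 of the 10 rose and 4 fell, with a median log2 fold change of -0.37 against -0.05 for all genes with TMM. Of all genes 21.4% rose and 23.6% fell over that span. The sum of 4 erythroid genes was 8423 at E18.5 and 370 in the adult, that of 6 endothelial genes 185 and 69.0, and that of 7 smooth muscle genes 1371 and 1893. Des, also a myofibre marker, made up most of the last sum, with 985 and 1816. The other 6 smooth muscle genes summed to 386 and 76.9. With TMM the median log2 fold change over this span was -3.48 for the erythroid list, -0.45 for the endothelial and -0.34 for all 7 smooth muscle genes. With TMM none of the 6 endothelial genes was called, while all 4 erythroid genes fell, and 1 smooth muscle gene rose and 2 fell. With library size alone 5 of the 6 endothelial genes fell, with a median of -1.48. All 4 erythroid genes and 4 of the 7 smooth muscle genes then fell, beside 45.6% of all genes.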
